A study of Mus musculus with 6 samples.

Results

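Mitochondrial complex I (NADH:ubiquinone oxidoreductase) was examined in cultured mouse spermatogonia through the 7 subunit genes that the mitochondrial genome itself carries: mt-Nd1, mt-Nd2, mt-Nd3, mt-Nd4, mt-Nd4l, mt-Nd5 and mt-Nd6. The genes were selected by name among the 32285 rows of the count table, and all 7 were found. They had been chosen because earlier results of these data showed lower values in the Space libraries, so every Space and Ground value of the 7 is given as a description, with no test. The cells were germline stem (GS) cells, spermatogonia with stem cell activity that are expanded in culture. They were derived from testes of DBA/2 pups 2 to 3 days old with the genotype DBA/Tg14(act-EGFP-OsbY01), in which an EGFP transgene had been bred from C57BL6 into the DBA/2 background. All cells carried this transgene and all were frozen for 6 months, either on the International Space Station (Space) or on Earth (Ground). RNA was taken after thawing, and each group had 3 libraries, described as 3 lines of cells. The labels do not tie any library to a particular culture, so the spread between libraries may be partly technical. The titles name the groups used here. The treatment field of all 6 samples states the opposite of the title, and each direction below would change sign if that field were right.

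Complex I is the entry point of electrons from NADH into the respiratory chain and pumps protons across the inner mitochondrial membrane. Its membrane arm contains the subunits encoded by mitochondrial DNA, and all other subunits are encoded in the nucleus and imported. ND1 sits at the junction of the membrane arm with the peripheral arm near the quinone site, ND2, ND4 and ND5 are antiporter-like proton-pumping subunits, and ND3, ND4L and ND6 are small subunits that link these parts. Both strands of the mitochondrial genome are transcribed as long precursors that are cut mainly at the tRNAs between genes. Most of the resulting mRNAs receive a poly(A) tail. Spermatogonial stem cells are generally regarded as relying on glycolysis, and respiration gains weight as germ cells differentiate.

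Positions follow the GENCODE M21 annotation of GRCm38, the assembly of mm10, counted from 1. On the mitochondrial chromosome, mt-Nd1 (ENSMUSG00000064341) spans 2751 to 3707, mt-Nd2 (ENSMUSG00000064345) 3914 to 4951 and mt-Nd3 (ENSMUSG00000064360) 9459 to 9806. Further along, mt-Nd4l (ENSMUSG00000065947) spans 9877 to 10173, mt-Nd4 (ENSMUSG00000064363) 10167 to 11544 and mt-Nd5 (ENSMUSG00000064367) 11742 to 13565. These 6 genes share 1 transcribed orientation, while mt-Nd6 (ENSMUSG00000064368, 13552 to 14070) lies on the opposite strand and is read from the other precursor. None of the 7 genes has an intron. Members touch each other at a pair of places. The end of mt-Nd4l and the start of mt-Nd4 share 7 bases in different reading frames, with no tRNA between these genes. mt-Nd5 and mt-Nd6 share 14 bases on opposite strands. The sequences below, from the GENCODE M21 transcripts, show both joints with the shared bases in capitals and 30 bases on each side.
mt-Nd4l/mt-Nd4, chrM:10137-10203, plus strand: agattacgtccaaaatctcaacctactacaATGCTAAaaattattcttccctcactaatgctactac
mt-Nd5/mt-Nd6, chrM:13522-13595, plus strand: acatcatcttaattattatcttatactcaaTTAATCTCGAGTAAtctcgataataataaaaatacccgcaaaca
A read that lies across either joint can be assigned to both genes, and how the counting treated such reads was not stated.

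mt-Nd3, mt-Nd4l and mt-Nd4 also have near-identical copies in the nuclear genome. On chromosome 1, 7 annotated pseudogenes between 24611535 and 24616197 carry a stretch of mitochondrial sequence of 4663 bases. Among them, Gm28438 (24612775 to 24613119, minus strand) matches mt-Nd3, Gm10222 (24612407 to 24612700) matches mt-Nd4l and Gm28439 (24611535 to 24612410) matches the first 876 of the 1378 bases of mt-Nd4. Gm28438 and mt-Nd3 were identical at 344 of 345 aligned bases and differed by the substitution T3C (mt-Nd3 base, position from its first base, copy base). The first 120 bases of both are shown 5′ to 3′, with the single differing base in capitals, because the likeness bears on every count of mt-Nd3.
mt-Nd3: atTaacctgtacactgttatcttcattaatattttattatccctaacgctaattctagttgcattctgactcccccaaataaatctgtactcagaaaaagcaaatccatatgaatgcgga
Gm28438: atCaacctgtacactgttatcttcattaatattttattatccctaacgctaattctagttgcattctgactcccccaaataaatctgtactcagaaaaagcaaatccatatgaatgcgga
Gm10222 was identical to the first 294 of the 297 bases of mt-Nd4l, and Gm28439 had 0 differences from mt-Nd4 over its 876 bases. The sequence of mt-Nd4l that both loci share, with the 3 final bases that only the mitochondrial gene has in this annotation, is given next with no base in capitals.
mt-Nd4l: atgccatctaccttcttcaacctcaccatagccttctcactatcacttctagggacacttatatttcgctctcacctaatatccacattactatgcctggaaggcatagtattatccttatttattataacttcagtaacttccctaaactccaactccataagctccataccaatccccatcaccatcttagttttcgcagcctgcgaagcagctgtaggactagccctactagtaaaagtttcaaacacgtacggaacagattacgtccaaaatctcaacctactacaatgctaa
None of these pseudogenes has a row in the count table.

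The copies were set beside the counts by cutting each gene into windows of 76 bases, the read length given in the methods, and asking how many occur in any other annotated transcript on either strand. For mt-Nd3 this was 97.8% of windows, for mt-Nd4l 98.6% and for mt-Nd4 61.5%. It was 5.61% for mt-Nd2, 1.54% for mt-Nd5, and 0% for mt-Nd1 and mt-Nd6. The members with nearly all windows shared were those with the fewest counts. mt-Nd3 had 17, 22 and 16 counts in Ground-1, Ground-2 and Ground-3 and 5, 14 and 6 in Space-1, Space-2 and Space-3. mt-Nd4l had 12, 41 and 13 counts in Ground and 8, 19 and 9 in Space. By contrast, mt-Nd1 had from 67126 to 240877 counts per library.

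CPM denotes read counts scaled to a common library size, with library sizes adjusted by the TMM method. The same division ran through the other mitochondrial mRNAs. Over all 13 mitochondrial rows of the table, 5 genes had more than 90% of their windows in another transcript: mt-Nd3, mt-Nd4l, mt-Co2, mt-Atp6 and mt-Co3. Their mean levels were 1.80 to 55.8 CPM per kilobase of gene, and no library held more than 1641 counts of any of them. The 6 genes with a smaller shared part, mt-Nd1, mt-Nd2, mt-Nd4, mt-Nd5, mt-Co1 and mt-Cytb, had levels of 2164 to 15055 on the same scale and at least 41773 counts in every library. The remaining mt-Nd6 and mt-Atp8 had low levels with 0% of windows found elsewhere. For mt-Atp8 the corresponding stretch on chromosome 1 lies between annotated pseudogenes and was outside the transcripts searched. The part of the nuclear copies in the low counts was not tested, since neither the reads nor the setting for reads with several alignments were used here. The counts of mt-Nd3 and mt-Nd4l are therefore uncertain as measures of the RNA of these genes. The counts of mt-Nd4 may represent only part of the gene.

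**Figure D1:**
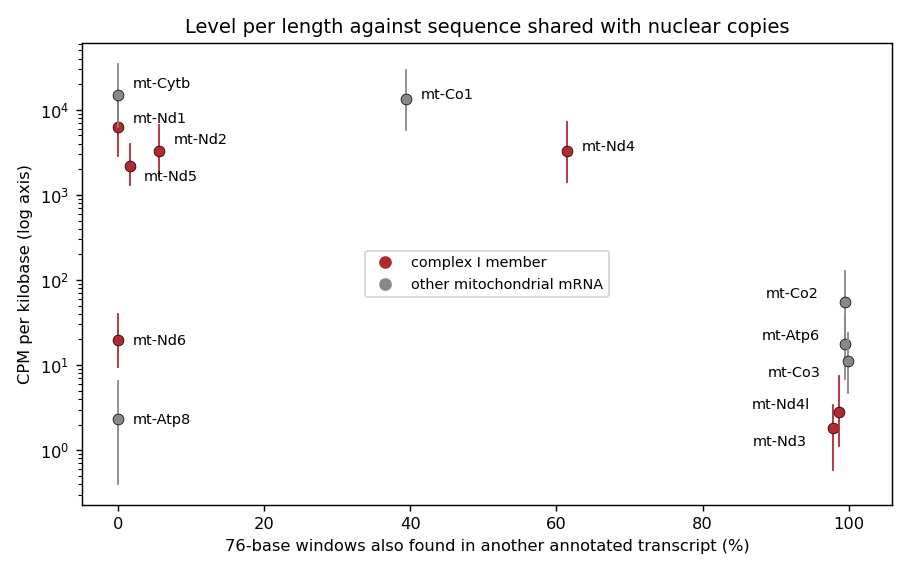
Mean level of the 13 mitochondrial mRNAs over 6 libraries, as CPM per kilobase on a log axis, against the percent of their 76-base windows found in another annotated transcript. Bars run from the lowest to the highest library. mt-Nd3 and mt-Nd4l sit at 97.8% and 98.6% with levels below 3, whereas mt-Nd4 at 61.5% is close to mt-Nd2.

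Levels of the members were compared per length, as CPM per kilobase of annotated gene. The mean over the 6 libraries was 6302 ± 4096 for mt-Nd1, 3266 ± 1927 for mt-Nd2, 3249 ± 2214 for mt-Nd4 and 2164 ± 999.6 for mt-Nd5 (SD, n = 6). It was 19.8 ± 12.8 for mt-Nd6, 2.78 ± 2.39 for mt-Nd4l and 1.80 ± 1.03 for mt-Nd3. For mt-Nd1, mt-Nd2, mt-Nd4 and mt-Nd5 the wide SDs came from shifts shared between libraries, and the ratios within a library were much tighter. For the scarce mt-Nd4l and mt-Nd3, the log2 ratio had an SD of 0.57 over the 6 libraries, wider than the SDs of the other ratios below. Within libraries, mt-Nd1 exceeded mt-Nd2 by a log2 ratio of 0.90 ± 0.10, in 6 of 6 libraries. The levels of mt-Nd2 and mt-Nd4 did not differ beyond their spread (log2 ratio 0.072 ± 0.13, mt-Nd2 higher in 4 of 6 libraries). mt-Nd4 exceeded mt-Nd5 by 0.44 ± 0.33 in 6 of 6. The step from mt-Nd5 to mt-Nd6 was the widest, with a log2 ratio of 6.89 ± 0.32, or 119-fold. Both library kits named for these samples select poly(A) RNA, so a level also depends on how much of an mRNA carries a tail. The part of this selection in the step was not tested. mt-Nd4l and mt-Nd3 at the bottom did not differ beyond their spread (0.53 ± 0.57, 4 of 6 libraries).

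The position of mt-Nd4 in this order depended on the divisor, 1378 bases of gene or 502 unshared windows. When counts were divided by the number of windows not found in another transcript, a scale chosen after seeing the data, mt-Nd4 had 8918 ± 6077 CPM per 1000 such windows, mt-Nd1 6838 ± 4444 and mt-Nd2 3729.7 ± 2201 (SD, n = 6). On that scale mt-Nd4 was the highest member in 6 of 6 libraries, and mt-Nd2 was below it by a log2 ratio of -1.19 ± 0.13. The mt-Nd6 level of 23.2 ± 14.9 was then the lowest of the 7, because mt-Nd3 and mt-Nd4l retained only 6 and 3 unshared windows. mt-Nd6 is the one member transcribed from the other strand, and its low level did not go with any shared window in this search. The part of poly(A) selection in that level was not tested.

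Of the counts of the 7 members, 99.92% to 99.95% in each library came from mt-Nd1, mt-Nd2, mt-Nd4 and mt-Nd5. mt-Nd1 had 3274, 12825 and 6533 CPM in Ground-1, Ground-2 and Ground-3, and 2764, 7775 and 3014 CPM in Space-1, Space-2 and Space-3. Ground-2 and Space-2 were the highest library of their group, and the groups overlapped, since Space-2 lay above Ground-1 and Ground-3. The group values of mt-Nd1 were 7544 ± 4855 and 4517 ± 2824 CPM (SD, n = 3), which is -0.74 as a log2 fold change (SE 0.54).

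The antiporter-like subunits had the same order of libraries. mt-Nd2 had 2039, 6899.5 and 3656 CPM in Ground and 1720.2, 4182 and 1846 CPM in Space, a log2 fold change of -0.70 (SE 0.48). mt-Nd4 had 2436, 9887 and 4663 CPM in Ground and 1982, 5717 and 2177 CPM in Space, a log2 fold change of -0.78 (SE 0.56). In both genes the highest library was Ground-2 and the lowest Space-1. mt-Nd5, the longest member, had 2798, 7204 and 3952 CPM in Ground and 2369, 4696 and 2666 CPM in Space, a log2 fold change of -0.52 (SE 0.37). Its range was the narrowest of the 7, with a 3.04-fold distance from the lowest to the highest library, compared with 4.01-fold for mt-Nd2, 4.64-fold for mt-Nd1 and 4.99-fold for mt-Nd4.

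The small subunits rested on few counts. mt-Nd6 had 5.48, 20.7 and 8.72 CPM in Ground and 4.90, 16.2 and 5.68 CPM in Space, from 133 to 389 and 119 to 304 counts, a log2 fold change of -0.39 (SE 0.59). mt-Nd4l had 0.494, 2.18 and 0.570 CPM in Ground and 0.329, 1.01 and 0.360 CPM in Space, with a log2 fold change of -0.94 (SE 0.71). mt-Nd3 had 0.700, 1.17 and 0.701 CPM in Ground and 0.206, 0.746 and 0.240 CPM in Space, with -1.15 (SE 0.54). As in the abundant members, replicate 2 was the highest library of each group for all of them. mt-Nd3 had the largest log2 difference of the 7, on totals of 55 counts in Ground and 25 in Space.

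**Figure D2:**
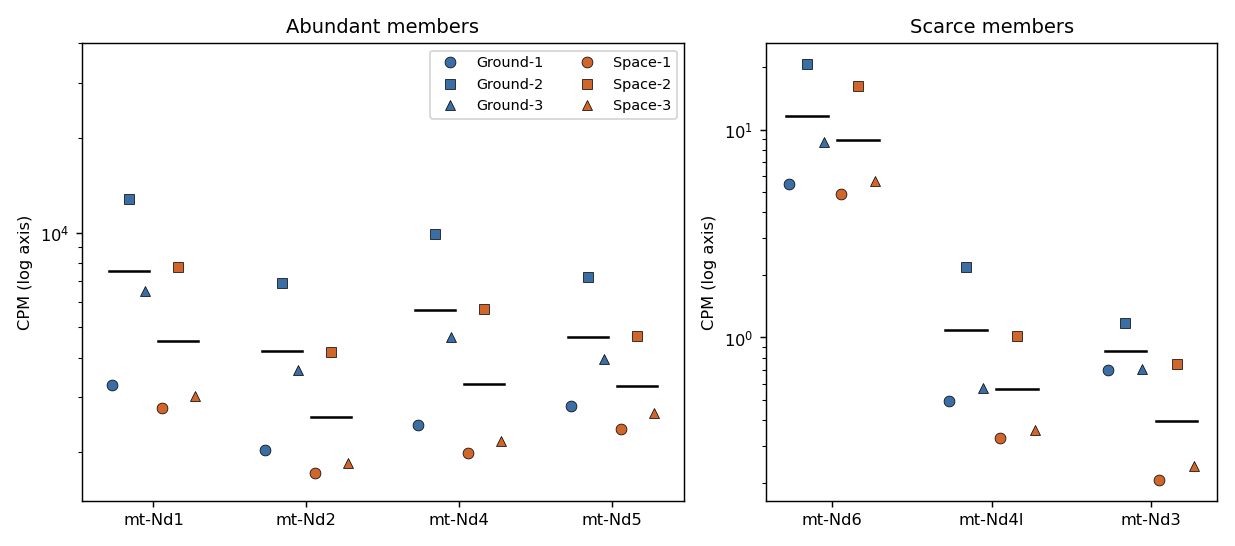
CPM of the 7 members in each library on log axes, with the abundant members on the left and the scarce ones on the right. Points are single libraries and horizontal bars the means of the 3 Ground and 3 Space libraries. Ground-2 and Space-2 (squares) are the highest of their groups for every gene, and each Space range overlaps the Ground range.

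All 7 members had lower means in Space, which is the property they were chosen for. The groups did not overlap in 0 of the 7, beside 1.98% of the 15104 tested genes with every Space library below every Ground library. All 7 passed the filter on low counts, mt-Nd3 and mt-Nd4l mainly through the Ground libraries, where their counts were higher. In Space-1 and Space-3 these genes had only 5 and 6 counts (mt-Nd3) and 8 and 9 counts (mt-Nd4l). The median log2 fold change of the 7 members was -0.74, beside -0.0020 over all genes tested. Without Ground-2 the median was -0.11 and 2 of the 7 were higher in Space, mt-Nd4l at 0.051 and mt-Nd6 at 0.32. Without Space-2 it was -1.38, without Space-1 -0.48, and without both libraries numbered 2 it was -0.67 with 7 of 7 below 0. In bulk libraries, fewer cells with abundant mitochondrial RNA and less mitochondrial RNA per cell cannot be told apart.

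As a share of all counts, the members took 1.10%, 3.47% and 1.85% of the Ground libraries in numerical order. The corresponding shares were 0.890%, 2.21% and 1.01% of the Space libraries. Ground-2 and Space-2 thus stood above the rest, and these were also the libraries with the fewest total counts, 19930234 and 19015985, against 23218122 to 24110916 in the others. The group values were 2.14% ± 1.21 for Ground and 1.37% ± 0.729 for Space (SD, n = 3), a difference of -0.768 percentage points. Counting error was negligible at this depth, with 95% Wilson intervals of at most ± 0.00804 percentage points per library. The part of sequencing depth in the shares was not tested.

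The cell type named in the labels had the highest summed markers of the lists examined. Detection alone did not separate the lists, since no listed marker of any of them was at 0 in every library. The 15 listed spermatogonial markers, among them Dazl (872.9 CPM on average), Zbtb16, Id4 and Lhx1, summed to 3433 to 3882 CPM in Ground and 3502 to 3903 CPM in Space. The 18 feeder fibroblast markers, none of which was at 0, summed to 1107 to 1123 CPM in Ground and to 876 to 1136 CPM in Space. Of the 18, 17 had a log2 fold change below 0, with a median of -0.30, and S100a4 (8.77 ± 3.65 CPM in Ground, 5.05 ± 1.77 in Space) and Vim (74.2 ± 23.6 and 45.9 ± 15.8) had the largest values, -0.80 (SE 0.36) and -0.70 (SE 0.29). Postn followed with -0.67 (SE 0.55), and Fn1, the most abundant, had -0.09 (SE 0.084). Without Space-1 the median was -0.06, and without Space-2 it was -0.60. In edgeR 0 of the 18 passed the adjusted threshold, and 3 were lower with an unadjusted p under 0.05 (0.45% of all genes). From low to high the fibroblast sums were 876 CPM in Space-1, 998 in Space-3, 1107 in Ground-1, 1110 in Ground-3, 1123 in Ground-2 and 1136 in Space-2. The CPM of mt-Nd1 put the libraries in the same order except that Space-2 came before Ground-2, and its 4.64-fold range compares with 876 to 1136 CPM for the fibroblast sum. The sums of Ground-1, Ground-3, Ground-2 and Space-2 lay close together, at 1107 to 1136 CPM, so their order carries little. Single markers differed in their order: S100a4 and Vim were highest in Ground-3, Postn in Ground-1 and Fn1 in Space-2. Testis somatic markers (8 genes, with Wt1 the most abundant and Amh, Gata4 and Star the largest in log2 fold change) summed to 29.4 to 32.2 CPM. Macrophage markers (5 genes, of which Cd68 and Cd14 passed the filter) summed to 14.3 to 22.8 CPM over the 6 libraries. The part of other cell types in the member values was not tested.

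The mitochondrial mRNAs did not keep a fixed composition across libraries. The members made up 35.4%, 30.2% and 32.5% of the counts of all 13 mitochondrial rows in Ground-1, Ground-2 and Ground-3, and 35.5%, 31.0% and 36.0% in Space-1, Space-2 and Space-3. The libraries with the most mitochondrial counts, Ground-2, Space-2 and Ground-3, thus had the smallest share from complex I, and the group means of 32.7% ± 2.64 and 34.2% ± 2.75 (SD, n = 3) were close together. The table has no rows for the 22 mitochondrial tRNAs and 2 rRNAs, so these shares are of mRNAs only.

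Most of that movement came from 1 gene. mt-Nd5 held 9.39%, 5.90% and 6.82% of the mitochondrial mRNA counts in Ground and 9.52%, 6.51% and 9.89% in Space. Relative to mt-Nd1, its counts were 0.855, 0.857 and 0.885 in Ground-1, Space-1 and Space-3, but 0.562, 0.605 and 0.604 in Ground-2, Ground-3 and Space-2. No library had a value between these 2 sets, and each set held libraries of both groups. mt-Nd2 was arranged in the same way over a smaller range, with 0.612 to 0.623 of the mt-Nd1 counts in the first 3 libraries and 0.538 to 0.560 in the others. mt-Nd4 was almost constant, at 0.714 to 0.771 of mt-Nd1, and its share of mitochondrial mRNA ran only from 7.92% in Space-2 to 8.18% in Ground-1. mt-Nd1 itself held 10.5% to 11.3%.

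**Figure D3:**
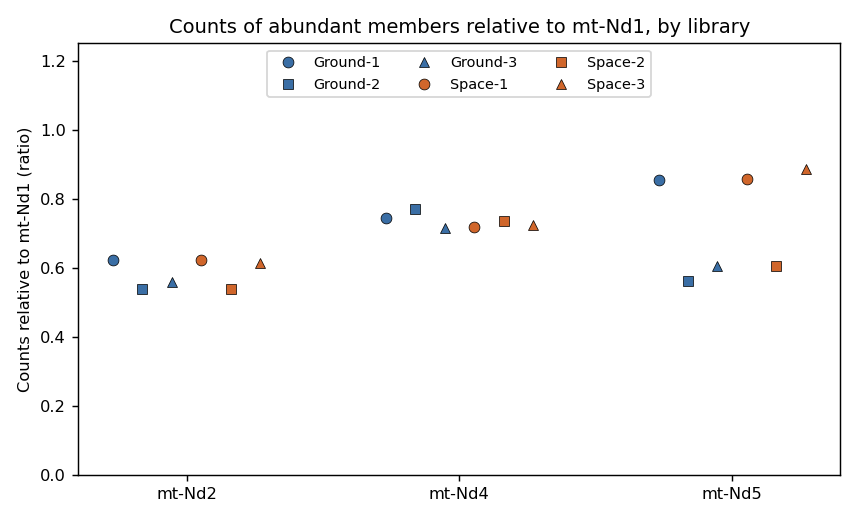
Counts of mt-Nd2, mt-Nd4 and mt-Nd5 divided by those of mt-Nd1 in each of the 6 libraries. mt-Nd4 stays between 0.714 and 0.771, while mt-Nd5 takes values of 0.855 to 0.885 in Ground-1, Space-1 and Space-3 and of 0.562 to 0.605 in the other libraries.

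For mt-Nd6 the share moved against the level. It held 0.0184%, 0.0170% and 0.0151% of the mitochondrial mRNA counts in Ground and 0.0197%, 0.0224% and 0.0211% in Space, so every Space library was above every Ground library. This was the case for 1 of the 13 mitochondrial rows (7.69%), and for 0 of 13 in the opposite direction. The counting error was wide, with an exact 95% Poisson interval of 0.0154% to 0.0218% in Ground-1 and of 0.0163% to 0.0236% in Space-1. The other intervals were 0.0153% to 0.0187% in Ground-2, 0.0130% to 0.0173% in Ground-3, 0.0200% to 0.0251% in Space-2 and 0.0177% to 0.0248% in Space-3. The interval of Space-2 lay above those of Ground-2 and Ground-3, and that of Space-3 lay above that of Ground-3. All other pairs of a Space and a Ground interval overlapped. The strand setting of the counting was not stated, so reads of mt-Nd6 and of transcripts antisense to it may not have been told apart.

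The remaining mitochondrial mRNAs were read from the same precursors, and their contrast is not independent of the members. mt-Cytb, a subunit of complex III, had 21931 ± 15595 CPM in Ground and 12516 ± 8638 CPM in Space (SD, n = 3), or -0.81 on the log2 scale (SE 0.60). mt-Co1, the catalytic subunit of cytochrome c oxidase, had a log2 fold change of -0.77 (SE 0.60). The other 4, mt-Co2, mt-Co3, mt-Atp6 and mt-Atp8, ranged from -1.20 to -0.62. All 6 were below 0, with a median of -0.79, and these values overlapped with those of the members.

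To see whether the nuclear part of complex I differed between Space and Ground, 37 nuclear-encoded subunits were examined in a test of all 15104 genes that passed the filter. In edgeR's quasi-likelihood test, 0 of these 37 passed a Benjamini-Hochberg threshold of 0.05 over all genes tested, and so did 0 of all genes (0%), with adjusted p-values of 0.9999 or more. Before adjustment, 0 of the 37 and 92 of all genes (0.609%) were under 0.05, while DESeq2 gave 0 and 45 (0.298%). Of the subunits, 28 were below 0 and 9 above (75.7% below, beside 51.3% of all genes), with a median log2 fold change of -0.048 and a range of -0.12 to 0.087. This direction was not stable. Without Ground-3 the median was 0.021, with 15 below 0 and 22 above. With library sizes from total counts it was -0.011, with 22 below and 15 above. That scaling also raised the median of all genes tested, from -0.0020 to 0.033, so this shift was not particular to the subunits. Without Space-1 the median of the subunits was -0.098, without Ground-1 -0.074, without Space-2 -0.028 and without Space-3 -0.019. Ndufb3 (33.9 ± 1.76 CPM in Ground, 31.2 ± 2.73 in Space) and Ndufb8 (106.3 ± 8.03 and 98.0 ± 9.49) had the largest values, both -0.12. Ndufc2 followed with -0.11 (SE 0.105). Ndufv1, the NADH-binding subunit and the most abundant of the list, had 255.6 ± 19.1 and 244.2 ± 7.75 CPM, with -0.066 (SE 0.068). Ndufa10 was the single subunit whose groups did not overlap (1 of 37, beside 1.98% of all genes lower in this way), at 87.3 ± 2.23 and 84.9 ± 0.486 CPM.

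Relative to the level, the spread between libraries was wider in the members than in the nuclear subunits given below. The most abundant nuclear subunit, Ndufv1, had a mean of 249.9 CPM over the 6 libraries and the least abundant, Ndufa1, of 19.0 CPM. For Ndufv1 the SD between the Ground libraries was 19.1 CPM on a mean of 255.6, whereas for mt-Nd1 it was 4855 on 7544. The log2 fold change of each member had an SE of 0.37 to 0.71, against 0.068 for Ndufv1 and 0.128 for Ndufa1.

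Assembly factors, which build complex I without remaining in it, gave 0 of 18 tested genes past the threshold and 0 at an unadjusted p under 0.05 in both edgeR and DESeq2. Their median log2 fold change was -0.038, with 15 below 0 and 3 above. Dmac1, needed for the distal membrane arm, had the largest value, with 12.0 ± 0.272 CPM in Ground and 14.0 ± 0.738 in Space (log2 fold change 0.22, SE 0.11, edgeR adjusted p = 0.9999). Its groups did not overlap (1.61% of all genes were higher in Space in this way), and those of Tmem126b (13.1 ± 0.185 and 11.9 ± 0.824 CPM, log2 fold change -0.13, SE 0.11) did not overlap in the opposite direction. Nubpl, which delivers iron-sulfur clusters, had -0.16 (SE 0.16), and Timmdc1, the most abundant factor, had -0.052 (SE 0.090).

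Genes that copy and transcribe mitochondrial DNA gave 0 of 15 tested past the threshold, with 11 above 0 and 4 below and a median of 0.023. The largest values were 0.13 (SE 0.15) for Tfb1m, a mitochondrial rRNA methyltransferase, 0.11 (SE 0.13) for Twnk, the replicative helicase, and 0.10 (SE 0.14) for Tefm, a transcription elongation factor. Polg, the mitochondrial DNA polymerase, was the most abundant with 175.3 ± 4.51 and 178.2 ± 2.97 CPM. Genes that process, stabilize or degrade mitochondrial RNA gave 0 of 19, with 10 above 0 and 9 below and a median of 0.0022. Lrpprc, which stabilizes mitochondrial mRNAs, had 234.5 ± 12.3 and 240.3 ± 16.4 CPM, and Fastkd1 had the largest value with 0.11 (SE 0.085). Ptcd2 and Fastk, both RNA-binding, had -0.095 (SE 0.19) and -0.092 (SE 0.12).

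Genes of the mitochondrial stress response gave 0 of 14, with 3 above 0 and 11 below and a median of -0.035. Gdf15, a secreted stress cytokine, had the largest value at -0.35 (SE 0.41) on a mean of 0.439 CPM, followed by Ddit3 with -0.13 (SE 0.16) and Chac1 with -0.13 (SE 0.26). Hspa9, the chaperone of the mitochondrial matrix, was the most abundant with 542.8 ± 40.3 and 556.2 ± 49.8 CPM. The medians of the assembly, transcription, RNA and stress lists each changed sign under at least 1 alternative. For the stress list this was total counts, which also raised the median of all genes tested to 0.033. In the transcription, RNA and stress lists, 0 genes had an unadjusted p under 0.05 in edgeR or DESeq2.

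**Figure D4:**
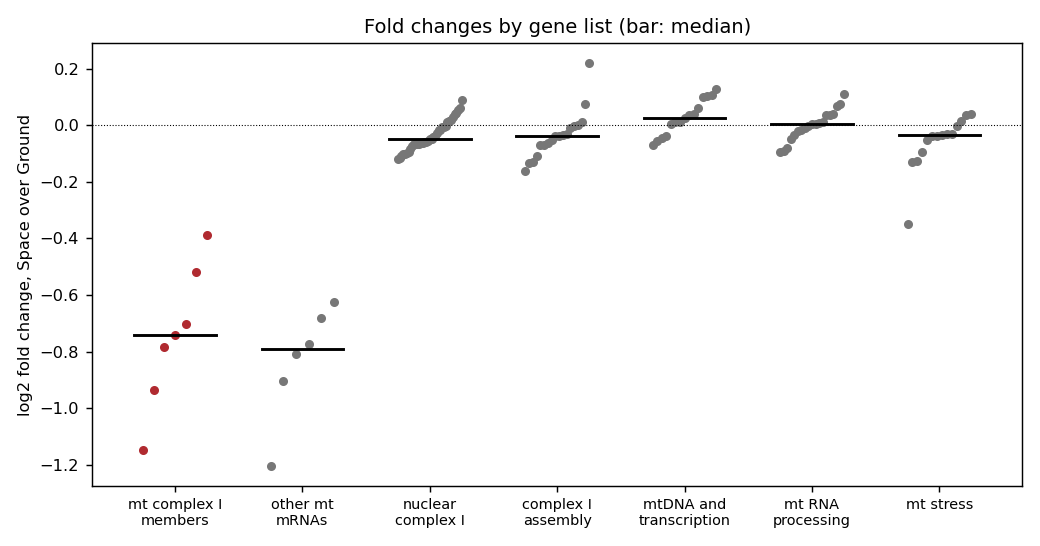
Log2 fold change, Space over Ground, of every tested gene in 7 lists, sorted within each list, with the median as a bar. The 7 members, chosen for this contrast, lie between -1.15 and -0.39, whereas the 37 nuclear subunits of complex I lie between -0.12 and 0.087.

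Outside the mitochondrial rows, the 5 genes whose log2 CPM followed the mean of the members most closely over the 6 libraries were Lzic, Drg1, Galt, Eif3g and Prdx5, out of 9501 genes with a mean of at least 10 CPM. Their Pearson's r ranged from 0.980 to 0.989 as a description, and libraries share their depth and scaling. The changes were small. Eif3g, a subunit of a translation initiation factor, had 386.4 CPM in Ground-2 and 347.5 CPM in Space-3, and Prdx5, a peroxiredoxin found in mitochondria, had 113.9 CPM in Ground-2 and 104.9 in Space-1. The highest library exceeded the lowest by 1.08-fold to 1.17-fold in these 5 genes, beside 3.04-fold to 6.63-fold in the members. The opposite pattern was closest in Kmt2b, a histone H3K4 methyltransferase (r = -0.994, 365.1 CPM in Ground-2 and 428.6 in Space-1), and in Sphk2, a sphingosine kinase (r = -0.987).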

How the data were processed

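RNA-seq was carried out on 6 samples of GS cells, 3 titled Space and 3 titled Ground. The deposited data were raw counts, which the authors gave as 1 gene table. Per the labels, reads were processed with bcl2fastq 2.20, cutadapt 4.1, HISAT2 2.2.1 and HTSeq 2.0.2 on mm10. The methods name the GENCODE M21 annotation, but 127 of the 32285 row identifiers are not in it. The annotation used for counting may therefore have differed from it. The strand setting and the treatment of reads with several alignments are not given in the sources used here. The labels and the methods differ in library kit, sequencer and read layout (both kits are stranded poly(A) kits).

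Totals were 19015985 to 24110916 counts. The values of mt-Nd3 and mt-Nd4l are imprecise in particular, because few counts fell on these genes. Genes were filtered by filterByExpr, scaled by TMM and tested with edgeR 4.0.16 in R 4.3.3 (quasi-likelihood F test, 2-sided, no block for replicate number, Benjamini-Hochberg threshold 0.05), which was tested on simulated data. DESeq2 1.42.0 was an alternative. SE is the size of the log2 fold change divided by the square root of F, and a prior count of 2 entered log2 CPM. Older symbols supplied 1 listed gene, and 1 of 164 listed genes (Coa1) was not matched.

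The members and lists were chosen with earlier results of these data known. Named genes were all mitochondrial rows, the 3 with the largest absolute log2 fold change and the most abundant of each list (fewer where fewer passed the filter), and the genes most and least like the members. Others named (Ndufa1, Ndufa10) were chosen after their values were seen. Intervals cover counting error only. Wilson intervals were at 95%. Windows were searched in the GENCODE M21 transcripts, not in the whole genome. Alternatives were other scalings and filters, DESeq2, a replicate block and leaving out libraries.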

Additional observations from a re-analysis of the deposited data

How the results depend on the processing

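The count of genes past the threshold was 0 over all genes and in each of the 6 tested lists under all 13 alternatives run, and the members kept a median below 0 in all of them. Libraries of the same replicate number were not alike throughout. The correlations of their deviations from the group mean were -0.54, 0.33 and -0.61 for numbers 1, 2 and 3. Such deviations sum to 0 within a group, which forces some correlations between the groups below 0. These values therefore cannot show whether the numbers mark shared lines. Of the 3 Ground libraries, 1 resembled its own number most (Ground-1 was closest to Space-3, Ground-2 to Space-2 and Ground-3 to Space-1). No fit on those matches was made, because they were found in the data and the labels give no such pairs, so the counts of 0 hold for fits without a block or with the labelled number as block. With the replicate block 0 genes passed, and 63 of 15104 had an unadjusted p under 0.05. The 63 included all 6 mitochondrial mRNAs outside complex I, against 0 of 6 without the block. Those 6 are not independent of the members, which were chosen for this contrast, so their p-values cannot serve as a test of it. With this block the median of the members was -0.69. In the fits without one library the median lay between -1.38 and -0.11, the share of all counts differed by -1.29 to -0.101 percentage points and the share of mitochondrial mRNA by 0.234 to 3.07. Of single members, only mt-Nd4l (0.051) and mt-Nd6 (0.32) turned above 0, both without Ground-2. List medians near 0 changed sign: assembly factors had 0.0027 without both libraries numbered 2, transcription genes -0.016 without Ground-1, RNA genes -0.043 without Space-1 and stress genes 0.00034 with total counts. Total counts also raised the median of all genes tested, from -0.0020 to 0.033. For the members, library sizes without the mitochondrial rows gave a median of -0.74, and total counts -0.69.

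The order of levels changed when counts were divided by unshared windows, a scale chosen after seeing the data. With windows of 76 bases the log2 ratio of mt-Nd2 to mt-Nd4 was -1.19, of mt-Nd6 to mt-Nd4l -3.45, of mt-Nd4 to mt-Nd5 1.82 and of mt-Nd4l to mt-Nd3 1.30. With windows of 51 bases these were -1.19, -3.53, 1.75 and 1.30, and that of mt-Nd1 to mt-Nd2 was 0.79. Both follow from the change of the divisor. Values under about 20 counts, as in most libraries for mt-Nd3 and mt-Nd4l, have a wide counting error.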
